A study of Danio rerio with 10 samples.

Results

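The comparison follows earl grey mutant zebrafish over their own time course, from day 3 to day 5 after fertilization. Its members are the 5 mutant arrays of a series of 10, picked by their titles: 3 pools of day 5 mutants and 2 pools of day 3 mutants. The 5 sibling arrays, 3 of day 5 and 2 of day 3, serve to show which changes the mutants share with normal larvae. Every pool came from matings of fish heterozygous for the cz3 allele of earl grey (egy) in the AB/WIK background, was raised at 28 °C and was sorted into mutants and siblings. The defect is recessive and present in the whole animal. Siblings are called wild type but were sorted by appearance alone, so heterozygous carriers are expected among them. RNA was taken from pools of whole embryos, so a transcript of 1 organ is measured against all others, and fewer cells of a type cannot be told apart from less RNA per cell.

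earl grey encodes the zebrafish orthologue of p110, named sart3, a protein that reassembles the U4/U6 small nuclear ribonucleoprotein after each round of splicing. Between these days a zebrafish changes from a newly hatched embryo living on yolk to a larva that is about to feed. Its acinar pancreas, liver and gut begin to make digestive and metabolic proteins, its cones acquire the machinery of vision, and its pools of dividing neural precursors shrink. In mutants the head, eyes and thymus stay small and the arches of the pharynx form poorly.

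Several labels disagree with the titles. The series text gives the second time as day 4, the protocol gives 120 hours, and the source names of mutant replicate 3 and sibling replicate 2 of day 5 also say day 4. Mutant replicate 3 of day 5 also stood apart in the data, as the day 5 mutant pool nearest the siblings. It was not the pool least like its own group. Its rank correlations there were 0.9679 with replicate 1 and 0.9727 with replicate 2, which correlated at 0.9697 with each other. Its highest rank correlation was with a day 5 sibling pool (0.9738). Mutant replicate 1 of day 3 likewise correlated at 0.9813 with sibling replicate 2 of day 3, whose strain label says mutant, and at 0.9802 with its own partner. For sart3, however, that sibling pool had 2516.5, against 2526 in sibling replicate 1 and 462 and 648 in the day 3 mutants. For mdm2, a p53 target, it had 1227, against 1040 in sibling replicate 1 and 4299 and 3885 in the day 3 mutants. On both genes it lay with the siblings. The 3′ to 5′ signal ratio of the actin control probe sets was 3.90 to 5.99 in day 5 mutants, against 1.78 to 2.21 in day 3 mutants, and that of the GAPDH controls was 1.31 to 1.4997 in day 5 mutants, against 1.68 to 1.88 in day 3 mutants. In siblings the actin ratio was 5.28 to 9.24 on day 5, against 1.76 to 2.25 on day 3, and the GAPDH ratio 1.27 to 1.41 on day 5, against 1.70 to 1.87 on day 3. The part of RNA quality in the results was not tested.

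The transcript of the affected gene stood below all 5 sibling pools in each of the 5 mutant pools. sart3 had signals of 105, 132 and 809 in day 5 mutants, against 462 and 648 in day 3 mutants. In siblings it had 1771, 2586 and 2036 on day 5, against 2526 and 2516 on day 3. Day 5 replicate 3 was above both day 3 mutant pools, while the other day 5 pools were under 223, the lower limit set on mean signals. The change of the mutants was −0.99 ± 0.51 on the log2 scale (adjusted p = 0.20). Without replicate 3 of day 5 it was −1.75 (adjusted p = 0.00045). Whether the probes lie beyond the mutation is not given in the sources used here, which limits what this signal says about how the pools were sorted.

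Most changes called in siblings had the same sign in mutants. Of 7280 genes with a testable probe set, 726 were called higher on day 5 than on day 3 in mutants (9.97%) and 704 lower (9.67%), at a Benjamini-Hochberg adjusted p under 0.05 in limma. In siblings 678 were called higher (9.31%) and 708 lower (9.73%). The counts of gene lists below are to be read against these shares. The 2 comparisons share no array, only the estimate of spread. 409 genes were called higher in both, which is 56.3% of the mutant calls and 60.32% of the sibling calls. 390 genes were called lower in both, or 55.4% of the mutant calls and 55.1% of the sibling calls. Of the genes called higher in siblings, 97.8% also had a positive change in mutants, and of those called lower, 97.6% a negative one. The sizes were smaller in mutants for the genes that the sibling values chose: the median change was +0.50 in mutants and +0.63 in siblings among those higher in siblings, and −0.49 in mutants and −0.63 in siblings among those lower. The converse also held, with medians of +0.62 in mutants and +0.45 in siblings among genes called higher in mutants, and −0.63 in mutants and −0.49 in siblings among those called lower in mutants.

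Over all 11626 probe sets, with or without a gene name, 997 were higher (8.58%) and 1214 lower (10.4%) in mutants, and 958 (8.24%) and 1171 (10.1%) in siblings. A test of the difference between the mutant and the sibling change called no probe set (0% of 11626 in either direction). At an unadjusted p under 0.05 it counted 771, and the lowest adjusted p was 0.073, for crx and clu. In this fit a gene called in mutants and not in siblings is therefore not shown to differ between them in its change. The sibling calls rested on the day 3 sibling pools, of which replicate 2 had sibling-like signals of sart3 and mdm2. The strain label of sibling replicate 2 of day 3 says mutant, and when the fit followed that label (the relabelled pool), siblings had 150 probe sets higher and 115 lower, and 117 higher and 104 lower were called in both, against 555 and 661 with the titles' groups. With that pool left out siblings had 218 higher and 153 lower, and without sibling replicate 1 of day 3 they had 428 and 441. Each of these fits has 1 sibling pool on day 3. Without sibling replicate 1 of day 5 they had 567 and 646, and without replicate 2 of day 5 they had 647 and 769. Without mutant replicate 3 of day 5 the test of the difference called 50 probe sets, 6 with a more positive and 44 with a more negative change in mutants. These stood for 4 genes and 32 genes of the 7280. Of the 32, 10 were among the 16 tested exocrine pancreas genes and 9 among the 27 of phototransduction. That pool stood apart in these same data, as the day 5 mutant pool nearest the siblings. The calls gained by leaving it out therefore describe the other pools and give no independent support. The same holds for the adjusted p-values given below without that pool. Leaving out both day 5 pools that a label places on day 4 gave 2 and 24 probe sets.

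**Figure D1:**
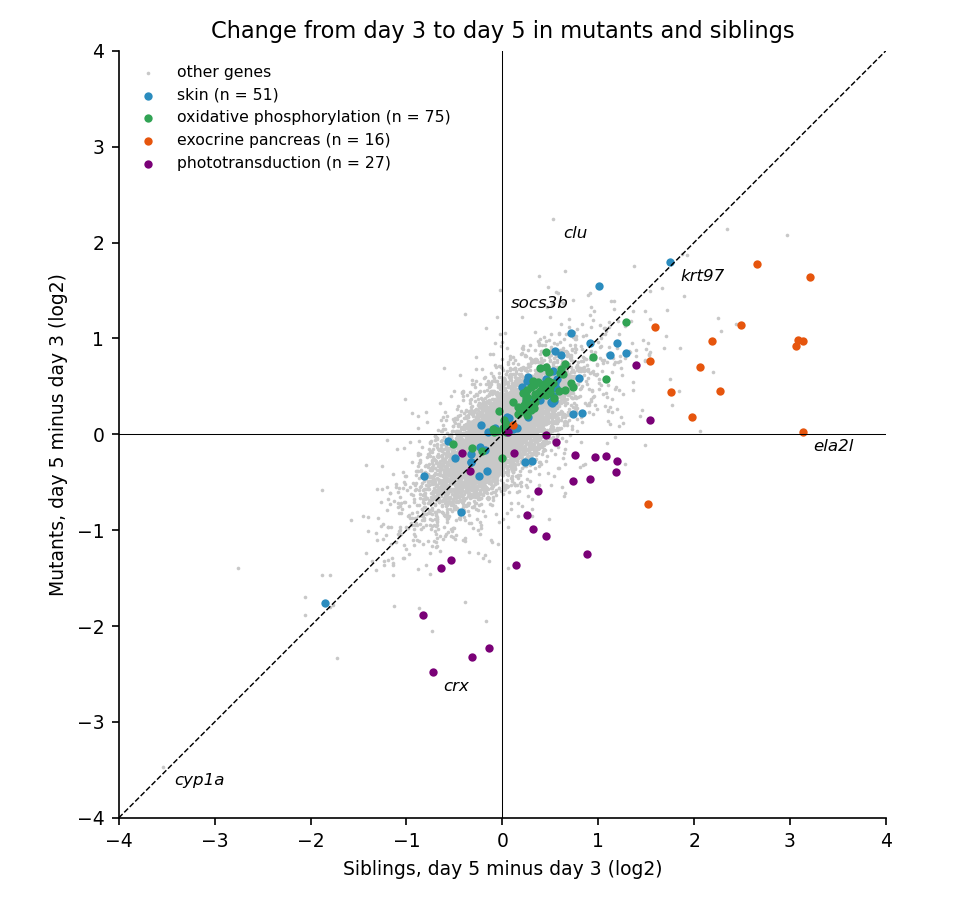
Each point is a gene (7280 in all), with the change from day 3 to day 5 in mutants on the vertical axis and in siblings on the horizontal axis, both as log2 differences; the dashed line marks equal changes. Skin and oxidative phosphorylation genes lie along the line, most exocrine pancreas genes below it on the right, and phototransduction genes mostly below the horizontal zero line.

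Many skin genes rose in mutants and in siblings. Of 51 tested genes for keratins, junctions and other epidermal proteins, 21 were called higher in mutants (41.2%) and 2 lower, and 19 were called in the same direction in siblings, where 22 were higher and 3 lower. The 22 sibling calls were 9 with the relabelled pool, 13 and 12 without sibling replicate 2 or 1 of day 3, and 16 to 23 without a day 5 sibling pool. The list's median change was +0.34 in mutants and +0.31 in siblings, against +0.02 in mutants and −0.01 in siblings over all genes. krt97, a keratin, had signals of 12087, 12639 and 17154 in day 5 mutants, against 4138 and 3725 in day 3 mutants, and 19928, 17924 and 17626 in day 5 siblings, against 5899 and 4998 in day 3 siblings. The days did not overlap in either, and the change was +1.80 ± 0.14 in mutants (adjusted p = 3.5e-05) and +1.75 ± 0.14 in siblings, a difference of +0.04 ± 0.20 (adjusted p = 0.98). anxa2a and anxa1a, membrane-binding annexins, rose by +1.55 and +1.06 in mutants and by +1.01 and +0.72 in siblings, and krt94 and krt1-19d by +0.96 and +0.96 in mutants and by +0.92 and +1.199 in siblings. cst14b.1, a cystatin protease inhibitor of the same list, fell to 741, 779 and 767 in day 5 mutants, against 2789 and 2686 in day 3 mutants (−1.76 ± 0.30, adjusted p = 0.0024). The count of 21 fell to 11 without mutant replicate 1 of day 3 and to 13 without replicate 2, each of which leaves 1 pool on that day.

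Many genes of energy metabolism and of the ribosome were called higher on day 5 in mutants, and also in siblings with the titles' groups. Genes of oxidative phosphorylation, which encode the mitochondrial respiratory chain and ATP synthase, had 46 of 75 higher in mutants (61.3%) and 0 lower, with 38 higher and 2 lower in siblings. Their median change was +0.42 in mutants and +0.35 in siblings, and 34 were called higher in both. The 38 sibling calls were 1 with the relabelled pool, 3 and 20 without sibling replicate 2 or 1 of day 3, and 24 to 30 without a day 5 sibling pool. ndufa3, a subunit of complex I, had 7821, 12098 and 9720.0 in day 5 mutants, against 4085 and 4478 in day 3 mutants, a change of +1.17 ± 0.18 (adjusted p = 0.0012). ndufa6, another subunit, had 8324, 6964 and 6852 in day 5 mutants, against 4443 and 3649.9 in day 3 mutants (+0.86 ± 0.14, adjusted p = 0.0021). The count was 24 and 20 without either day 3 mutant pool in turn. Ribosomal protein genes had 25 of 73 higher in mutants and 0 lower, all 25 also called in siblings, where 44 were higher. Those 44 were 3 with the relabelled pool, 3 and 16 without sibling replicate 2 or 1 of day 3, and 25 to 51 without a day 5 sibling pool. rpl29 had 37140.1, 41849.6 and 34013 in day 5 mutants, against 21377 and 25862 in day 3 mutants (+0.67 ± 0.11, adjusted p = 0.0023), and rps29 had 49006, 54428 and 48601 in day 5 mutants, against 33738 and 34166 in day 3 mutants (+0.58 ± 0.09, adjusted p = 0.0019). The count for ribosomal proteins was 5 without either day 3 mutant pool, 17 without mutant replicate 3 of day 5, 11 without mutant replicate 2 of day 5 and 8 after quantile normalization. Quantile normalization gave a median of +0.08 in mutants, against +0.29 as deposited, and 15 higher calls with a median of +0.09 in siblings, against +0.37 as deposited.

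Marker genes of pigment cells called in mutants were called in the same direction in siblings. 9 of 23 pigment genes were called in mutants, 6 higher and 3 lower, and all 9 were called in the same direction in siblings. The counts were 5 higher and 1 lower without either day 3 mutant pool. The 7 higher sibling calls were 2 with the relabelled pool, 4 and 3 without sibling replicate 2 or 1 of day 3, and 6 without a day 5 sibling pool. dct, which makes the melanin precursor, had 11757, 10742 and 9529.9 in day 5 mutants, against 5468 and 4937 in day 3 mutants, and 9193, 8378 and 8155 in day 5 siblings, against 5494 and 4655 in day 3 siblings. Its change was +1.02 ± 0.12 (adjusted p = 0.00027) in mutants and +0.75 ± 0.12 in siblings. gchfr, a regulator of pteridine synthesis, rose by +1.19 in mutants and +1.205 in siblings, and mycbp2, a ubiquitin ligase, by +0.91 in mutants and +1.11 in siblings. impdh1b, an enzyme of guanine nucleotide synthesis, fell to 1629, 1456 and 1515 in day 5 mutants, against 3359 and 4616 in day 3 mutants (−1.33 ± 0.20, adjusted p = 0.0012, against −1.23 ± 0.20 in siblings).

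Of 14 genes of islets and pituitary, 5 were called higher in mutants (35.7%) and 3 lower (21.4%), against 4 higher and 1 lower in siblings. One of the lower members was neurod1, also in the list of neurons, which changed by −1.11 ± 0.13 in mutants and −0.39 ± 0.13 in siblings. The 5 higher calls were 3 and 2 without day 3 mutant replicate 1 or 2. ins, insulin, had 2281, 1941 and 1583 in day 5 mutants, against 1046 and 1157 in day 3 mutants, and 1509, 1430.5 and 1565 in day 5 siblings, against 813 and 801 in day 3 siblings. Its change was +0.76 ± 0.15 in mutants (adjusted p = 0.0048) and +0.84 ± 0.15 in siblings, with a difference of −0.08 ± 0.21 (adjusted p = 0.97). gcga, glucagon, changed by +0.89 ± 0.15 in mutants (adjusted p = 0.0021) and by +0.73 ± 0.15 in siblings. Among 17 myelin and glial genes 3 were called higher in mutants (1 and 2 without day 3 mutant replicate 1 or 2) and 1 lower, and cldnk, a claudin of myelin, had 1770.1, 1477 and 1664 in day 5 mutants, against 748 and 918 in day 3 mutants (+0.93 ± 0.16, adjusted p = 0.0023, and +1.03 ± 0.16 in siblings).

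Regulators of splicing, chromatin and mitosis were among the genes lower on day 5 in mutants. Of 81 splicing regulators of the SR and hnRNP families, 31 were lower in mutants (38.3%) and 2 higher, against 27 lower and 5 higher in siblings, and 22 were called in the same direction in both. srsf5b had 4129, 3683 and 3906 in day 5 mutants, against 9116 and 13046 in day 3 mutants, and 3316, 4798 and 5316 in day 5 siblings, against 9059 and 10573 in day 3 siblings. The change was −1.47 ± 0.19 in mutants (adjusted p = 0.00046) and −1.14 ± 0.19 in siblings. ptbp2b, a neuronal splicing repressor, changed by −1.35 in mutants and −1.14 in siblings, and srsf4 by −0.89 in mutants and −0.70 in siblings. Of 28 histone and chromatin genes 11 were lower in mutants and 0 higher, and 8 were lower and 2 higher in siblings. hmgb1b and hmgb3a, abundant DNA-bending proteins of dividing tissue, fell by 0.88 and 0.78 on the log2 scale in mutants, and ezh2, the Polycomb methyltransferase, by 0.65. Of 64 mitosis genes 14 were lower and 0 higher in mutants, against 11 lower and 1 higher in siblings. kifc1, a spindle motor, had 650.3, 564 and 442 in day 5 mutants, against 1212 and 1411 in day 3 mutants (−1.17 ± 0.19, adjusted p = 0.0017). 4 of 60 DNA replication genes were lower (6.67%, under the 9.67% of all genes), among them e2f3 (−1.07 ± 0.14, adjusted p = 0.00053). That count was 11 without mutant replicate 3 of day 5. Without day 3 mutant replicate 1 or 2 in turn, the lower calls were 19 and 20 for the splicing regulators, 6 and 7 for chromatin, 6 and 6 for mitosis, and 2 and 1 for DNA replication, which was also 2 without mutant replicate 2 of day 5. In siblings the 27 lower splicing regulators were 3 with the relabelled pool, 5 and 15 without sibling replicate 2 or 1 of day 3, and 19 to 25 without a day 5 sibling pool. The 8 lower chromatin genes of siblings were 1 with the relabelled pool, 2 and 3 without sibling replicate 2 or 1 of day 3, and 6 to 7 without a day 5 sibling pool. Their 11 lower mitosis genes were 0 with the relabelled pool, 0 and 1 without sibling replicate 2 or 1 of day 3, and 2 to 8 without a day 5 sibling pool.

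Some clock genes changed in both, and so did cyp1a and cyp1c1 of the aryl hydrocarbon and xenobiotic list. Of the 13 tested genes of that list, 1 was higher and 3 lower in mutants, against 4 higher and 2 lower in siblings. The list's median change was −0.10 in mutants and +0.27 in siblings, so the list as a whole did not fall in siblings. cyp1a, a monooxygenase induced through the aryl hydrocarbon receptor, had the largest fall of all named genes: 1403, 1110.5 and 1679 in day 5 mutants, against 15079 and 16746 in day 3 mutants. In siblings it had 1669.7, 1454 and 2005 on day 5, against 26658 and 15493 on day 3. The change was −3.47 ± 0.22 in mutants (adjusted p = 1.1e-05) and −3.53 ± 0.22 in siblings. cyp1c1, a relative, changed by −1.46 ± 0.36 in mutants (adjusted p = 0.015), which became 0.069 and 0.097 without either day 3 pool. Of 27 clock genes 9 were lower and 2 higher in mutants, against 6 lower and 3 higher in siblings, and 8 were called the same way in both. The 9 lower calls were 6 without either day 3 mutant pool. The 6 lower sibling calls were 3 with the relabelled pool, 3 and 5 without sibling replicate 2 or 1 of day 3, and 6 to 7 without a day 5 sibling pool. per2, a light-induced repressor of the clock, had 1614, 1462 and 1141 in day 5 mutants, against 4444 and 5554 in day 3 mutants (−1.79 ± 0.16, adjusted p = 6.8e-05, against −1.13 ± 0.16 in siblings). tefa, a light-responsive transcription factor, changed by −1.25 in mutants and −0.98 in siblings, the cryptochrome genes cry-dash and cry3b by −1.12 and −1.29 in mutants and −0.87 and −1.15 in siblings. bhlhe41, a repressor in the clock loop, rose by +0.95 in mutants and +1.52 in siblings. rorab, a nuclear receptor of the list, fell to 1882, 1940.2 and 2006 in day 5 mutants, against 2940.3 and 3530.1 in day 3 mutants (−0.71 ± 0.11, adjusted p = 0.0016), and in siblings was 3642, 3968 and 3516 on day 5, against 3519.8 and 3442 on day 3 (difference −0.80 ± 0.16, adjusted p = 0.19). The hour of collection is not given in the sources used here, and its part in these values was not tested.

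**Figure D2:**
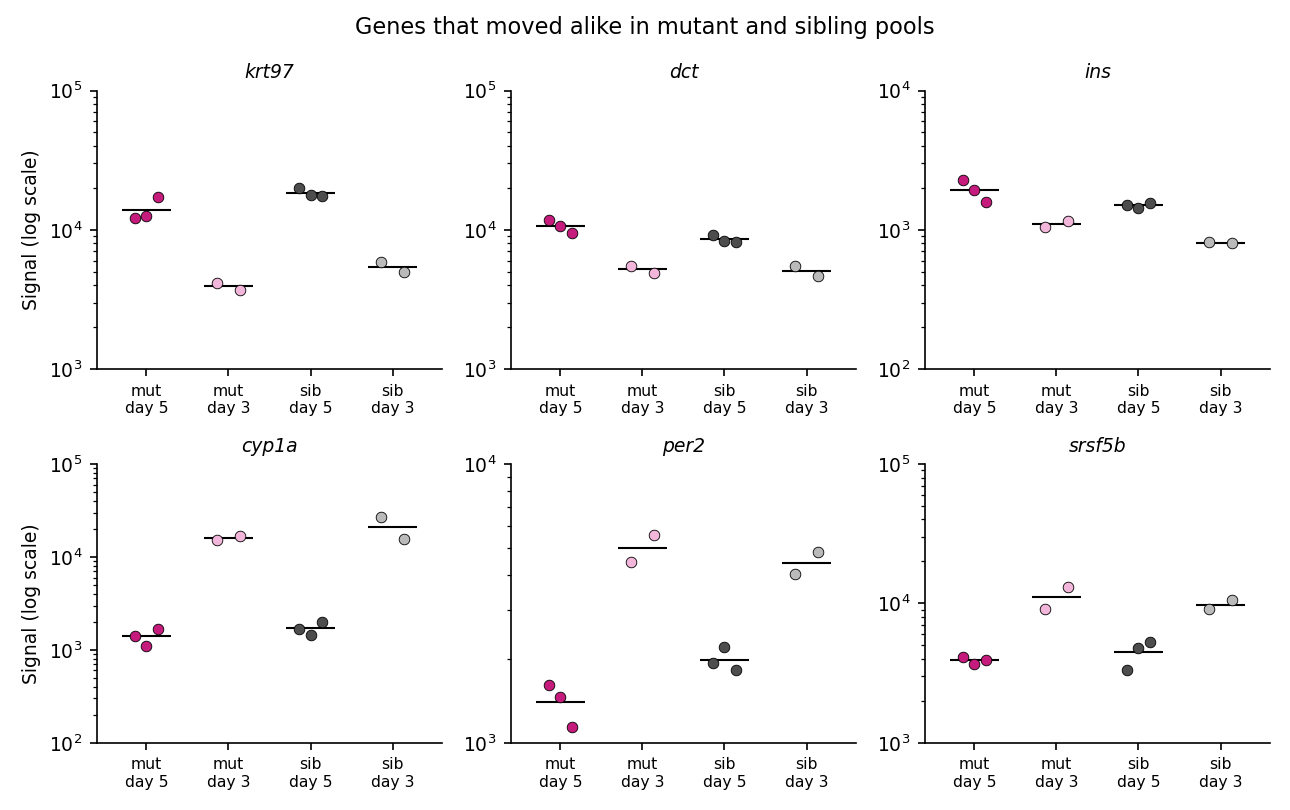
Signal of 6 genes in each pool on a log scale, with a bar at the group mean; mut is mutant (3 pools on day 5, 2 on day 3) and sib is sibling (3 and 2). In each panel the day 5 and day 3 pools do not overlap, in mutants or in siblings, and the direction is the same in both.

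With all pools in their titles' groups, most genes of the exocrine pancreas rose in siblings and few were called in mutants. Of 16 tested genes (18 are on the array), 2 were called higher in mutants (12.5%, near the 9.97% of all genes) and 14 in siblings (87.5%). The limit of 223 is set on the mean of all pools. Members low in mutants could therefore pass it through their sibling signals, and the contrast of 2 with 14 is only a description. Both counts moved with single pools. In mutants 8 were higher without mutant replicate 2 of day 5, 1 and 0 without day 3 mutant replicate 1 or 2, and 0 with the relabelled pool. In siblings the 14 were 4 with the relabelled pool, 8 and 12 without sibling replicate 2 or 1 of day 3, and 13 without a day 5 sibling pool. The median change was +0.84 in mutants and +2.23 in siblings. The median signal of the 16 genes was 470, 229 and 784 in day 5 mutants, against 264 and 241 in day 3 mutants, and it was 6147, 4120.1 and 5359 in day 5 siblings, against 882 and 651 in day 3 siblings. 2 of the 3 day 5 mutant pools were below both day 3 sibling pools, and replicate 3 was the highest of the 3.

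The 2 called genes were ctrl, a chymotrypsin-like protease, and cpa4, a carboxypeptidase. ctrl had 696, 449 and 2110.5 in day 5 mutants, against 287 and 196 in day 3 mutants, and 12532, 9020.2 and 11294 in day 5 siblings, against 1291 and 966 in day 3 siblings. It rose by +1.64 ± 0.43 in mutants (adjusted p = 0.019) and by +3.21 ± 0.43 in siblings, with a difference of −1.56 ± 0.61 (adjusted p = 0.67). cpa4 had 565, 359 and 843 in day 5 mutants, against 241 and 204 in day 3 mutants (+1.12 ± 0.25, adjusted p = 0.0099). Without mutant replicate 2 of day 3 the adjusted p was 0.13 for ctrl and 0.073 for cpa4, and without replicate 1 it was 0.065 for ctrl. With sibling replicate 2 of day 3 taken as a mutant it was 0.17 for ctrl and 0.25 for cpa4.

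The following members, chosen after their values were seen, did not pass in mutants. The elastase gene ela2l had 184, 249 and 654 in day 5 mutants, against 293 and 333 in day 3 mutants, so the days overlapped, and it had 5565, 4158 and 5048 in day 5 siblings, against 745 and 327 in day 3 siblings. Its change was +0.02 ± 0.38 in mutants (adjusted p = 0.98) and +3.14 ± 0.38 in siblings (adjusted p = 0.00047). The difference of −3.12 ± 0.54 had an adjusted p of 0.11, and 0.0055 without mutant replicate 3 of day 5. ela2, a related elastase, had 126, 52.9 and 1027 in day 5 mutants, against 87.3 and 91 in day 3 mutants, and 11842, 8108 and 10177 in day 5 siblings, against 1704 and 749 in day 3 siblings. Here replicate 3 alone was high, and the other mutant pools of both days were under the limit of 223. amy2a, pancreatic amylase, changed by +0.45 ± 0.23 in mutants (adjusted p = 0.19) and +2.27 ± 0.23 in siblings, and the trypsin gene prss1 by +0.97 ± 0.47 (adjusted p = 0.17, and 0.028 without mutant replicate 2 of day 5) in mutants and +2.19 ± 0.47 in siblings. pdia2, a folding enzyme of acinar cells, was under the limit of 223 in all 5 mutant pools and was tested because of its sibling signals. It had 18.3, 37.9 and 161 in day 5 mutants, against 184 and 107 in day 3 mutants (−0.73 ± 0.34, adjusted p = 0.16, and −1.16 with an adjusted p of 0.0066 without mutant replicate 3 of day 5), and 1017, 1069 and 1219.9 in day 5 siblings, against 352 and 331 in day 3 siblings (+1.52 ± 0.34). Its difference had an adjusted p of 0.21, and 0.0055 without mutant replicate 3 of day 5, where 10 of the 16 genes passed the test of the difference with a more negative change in mutants, against 0 with all pools.

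With all pools, a larger share of the intestinal list than of the pancreatic list was called in mutants. The median rise in mutants was nevertheless larger for the pancreatic list (+0.84, against +0.64), whose count also moved with single pools, as given above. Of 17 intestinal genes 8 were higher in mutants (47.1%) and 0 lower, and 10 were higher in siblings, with medians of +0.64 in mutants and +1.45 in siblings. Taken gene by gene, however, the median of the difference between the mutant and the sibling change was −0.053 for these genes, against −1.46 for the exocrine pancreas. These medians were −0.30 and −1.94 without mutant replicate 3 of day 5. In that fit 3 of the 17 intestinal genes passed the test of the difference with a more negative change in mutants. The 10 sibling calls were 5 with the relabelled pool, 7 and 9 without sibling replicate 2 or 1 of day 3, and 9 to 10 without a day 5 sibling pool. tm4sf4, a membrane protein of the intestine, had 2978, 2567 and 5249.9 in day 5 mutants, against 1133 and 686 in day 3 mutants (+1.88 ± 0.26, adjusted p = 0.00081), and 7386, 6416 and 7754 in day 5 siblings, against 2198 and 1655 in day 3 siblings (+1.87 ± 0.26). The chitinase gene chia.2 had 253, 191 and 453 in day 5 mutants, against 10 and 25.3 in day 3 mutants (+2.08 ± 0.28, adjusted p = 0.00055, with the low signals making the size uncertain), and 2106, 1506 and 1490.2 in day 5 siblings, against 179 and 139 in day 3 siblings. It was under the limit of 223 in both day 3 mutant pools and in mutant replicate 2 of day 5. That limit is set on the mean of all pools, and chia.2 reached it through its day 5 sibling signals. The count of 8, which holds chia.2, is therefore only a description. rbp2a, the retinol carrier of enterocytes, changed by +0.98 ± 0.16 in mutants (adjusted p = 0.0018) and +1.46 ± 0.16 in siblings. The count of 8 was 7 and 3 without day 3 mutant replicate 1 or 2 in turn.

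Other intestinal genes did not pass in mutants. Of those below, alpi.2 was under the limit of 223 in every mutant pool except replicate 3 of day 5. fabp6 was under that limit in both day 3 mutant pools and in mutant replicate 2 of day 5. fabp1b.1, a fatty acid binding protein named here after its values were seen, had 4287, 6619 and 6499 in day 5 mutants, against 4702 and 8063 in day 3 mutants, and 10755, 9344 and 10226 in day 5 siblings, against 3525 and 3575 in day 3 siblings. Its change was −0.11 ± 0.21 in mutants (adjusted p = 0.76) and +1.49 ± 0.21 in siblings, with an adjusted p of 0.16 for the difference and 0.039 without mutant replicate 3 of day 5. alpi.2, intestinal alkaline phosphatase, had 206, 169.6 and 335 in day 5 mutants, against 183 and 162 in day 3 mutants, and 991, 736 and 1086 in day 5 siblings, against 238 and 215 in day 3 siblings (difference −1.46 ± 0.34, adjusted p = 0.28, and 0.032 without that pool). The bile acid carrier fabp6 had 298, 174 and 873 in day 5 mutants, against 142 and 118.9 in day 3 mutants, and did not pass (+1.15 ± 0.42, adjusted p = 0.078), unless mutant replicate 2 of day 5 was left out (adjusted p = 0.013).

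Part of the liver genes rose in mutants. Of 36 genes for plasma proteins and liver enzymes 7 were higher in mutants (19.4%) and 2 lower, against 16 higher and 0 lower in siblings, with medians of +0.18 in mutants and +0.31 in siblings. The order of these counts turned with the relabelled pool, which gave 6 higher and 2 lower in mutants, against 1 higher and 0 lower in siblings. The 16 sibling calls were 1 with the relabelled pool, 5 and 6 without sibling replicate 2 or 1 of day 3, and 13 to 14 without a day 5 sibling pool, and the 2 lower mutant calls were 5 without mutant replicate 2 of day 5. c9, a complement component, had 4914, 5677 and 3500.2 in day 5 mutants, against 3068 and 2686 in day 3 mutants (+0.67 ± 0.17, adjusted p = 0.017, and +0.78 ± 0.17 in siblings). apoba, the apolipoprotein B gene, had 6562, 6528 and 2445 in day 5 mutants, against 11429.6 and 10063 in day 3 mutants (−1.17 ± 0.34, adjusted p = 0.031), and replicate 3 was the lowest pool. Both calls were lost without either day 3 mutant pool, with adjusted p of 0.056 and 0.12 for c9 and 0.17 and 0.10 for apoba, and the 7 higher calls fell to 2. fabp10a, the liver fatty acid binding protein, was picked after its values were seen. It had 374, 547 and 1637 in day 5 mutants, against 444 and 406 in day 3 mutants, and 7581, 6739 and 5836 in day 5 siblings, against 1644 and 1202 in day 3 siblings. Replicate 3 of day 5 was the highest mutant pool. The change was +0.65 ± 0.40 in mutants (adjusted p = 0.29) and +2.197 ± 0.40 in siblings, and the difference had an adjusted p of 0.64, and 0.0062 without replicate 3.

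**Figure D3:**
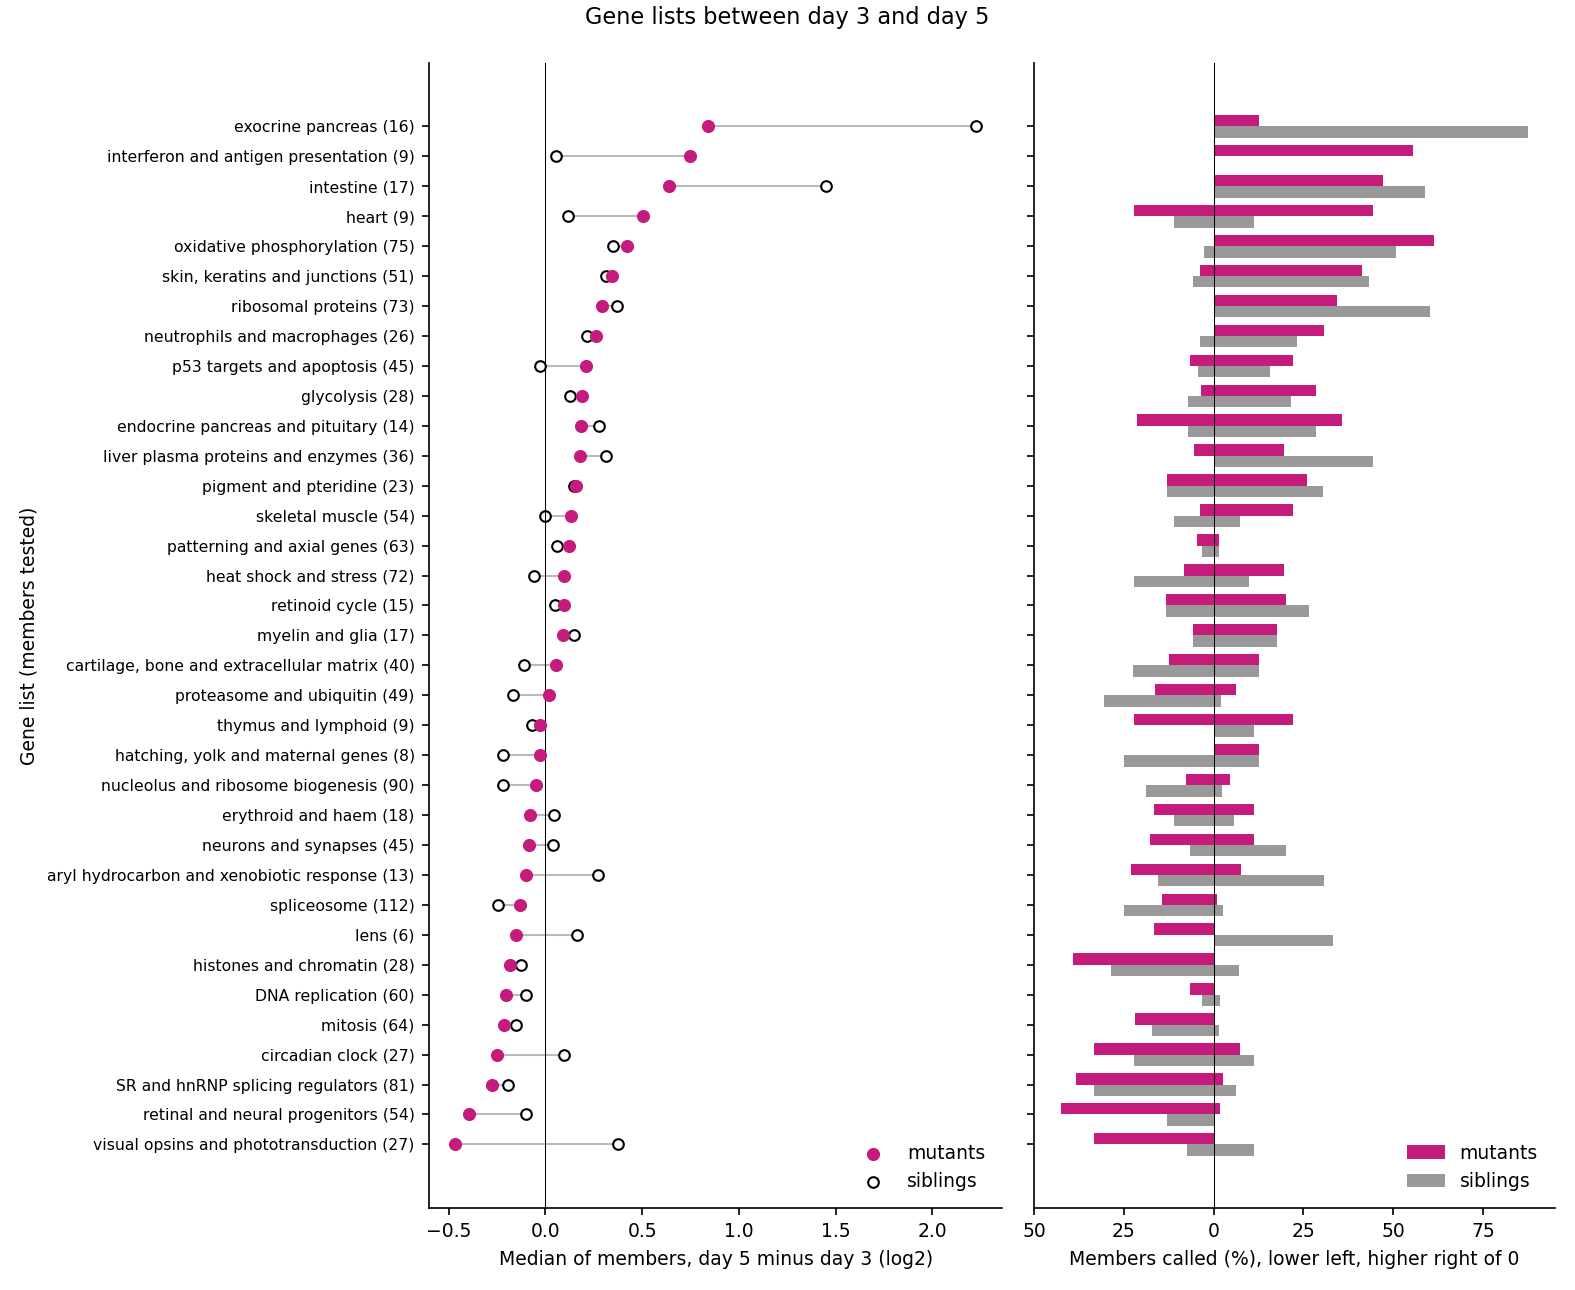
For 35 gene lists (members tested in brackets), the left panel gives the median log2 change of the members in mutants (filled) and siblings (open), and the right panel the percent of members called higher or lower on day 5. The median of the exocrine pancreas is higher in siblings, with a median gene-by-gene difference of −1.46, or −1.94 without mutant replicate 3 of day 5. That of the intestine is also higher in siblings. Its gene-by-gene difference has a median of −0.053, or −0.30 without that pool. The median of the interferon list is higher in mutants, and that of phototransduction is negative in mutants and positive in siblings.

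Part of the photoreceptor genes fell in mutants. Of 27 tested genes of opsins and phototransduction (39 are on the array) 9 were lower on day 5 than on day 3 in mutants (33.3%) and 0 higher, while in siblings 3 were higher and 2 lower, and the median change was −0.47 in mutants and +0.37 in siblings. As for the pancreas, the limit of 223 is set on the mean of all pools. Members low in mutants could pass it through their sibling signals, so the contrast of these counts is only a description. The median signal of the 27 genes was 457, 766 and 1094 in day 5 mutants, against 1520.3 and 1289 in day 3 mutants, and 3746, 4083 and 3529 in day 5 siblings, against 4025 and 3455 in day 3 siblings. Every day 5 mutant pool was below both day 3 mutant pools, and replicate 3 was the highest of the 3. Without it, 15 of the 27 were called lower in mutants and 10 higher in siblings, where array weights gave 9 higher and 5 lower and leaving out mutant replicate 1 of day 5 gave 8 higher. The 3 higher sibling calls were 0 with the relabelled pool, 0 and 0 without sibling replicate 2 or 1 of day 3, and 2 to 3 without a day 5 sibling pool. The 9 lower mutant calls were fewer without mutant replicate 1 of day 3, which leaves 1 mutant pool on that day.

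crx, the transcription factor that drives photoreceptor genes, had 526, 822 and 536 in day 5 mutants, against 3475 and 4003 in day 3 mutants, and 2685, 3254 and 2792 in day 5 siblings, against 4510.0 and 5167 in day 3 siblings. Its change was −2.48 ± 0.17 in mutants, or a fall of 5.58-fold (adjusted p = 1.5e-05), and −0.72 ± 0.17 in siblings (adjusted p = 0.014), and the difference of −1.76 ± 0.25 had an adjusted p of 0.073. All 3 day 5 pools were low for this gene, replicate 3 included, and with that pool left out the adjusted p of the difference was 0.014. elovl4b, which elongates the very long fatty acids of photoreceptor membranes, had 443, 804 and 1284 in day 5 mutants, against 3703 and 4669 in day 3 mutants (−2.33 ± 0.29, adjusted p = 0.00042), and 3566, 4146 and 4613 in day 5 siblings, against 4878 and 5332 in day 3 siblings (difference −2.01 ± 0.41, adjusted p = 0.19). rcvrn2, a recoverin that senses calcium in photoreceptors, had 194, 443 and 618 in day 5 mutants, against 2129 and 1931 in day 3 mutants (−2.22 ± 0.28, adjusted p = 0.00046), and 3958, 4083 and 4320.1 in day 5 siblings, against 4748 and 4323 in day 3 siblings (difference −2.09 ± 0.40, adjusted p = 0.16). Its relative rcvrn3 changed by −1.89 ± 0.25 in mutants (adjusted p = 0.00055) and −0.82 ± 0.25 in siblings, and nr2e3, a nuclear receptor of photoreceptors, by −1.31 ± 0.20 in mutants (adjusted p = 0.0015) and −0.54 ± 0.20 in siblings.

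For 2 members of the cascade, chosen after their values were seen, the pools lay in opposite order in mutants and siblings, although the sibling change did not pass. gucy2d, a guanylate cyclase that restores cyclic GMP, had 75.1, 49.2 and 234 in day 5 mutants, against 289 and 384 in day 3 mutants, and 1155, 1078 and 903 in day 5 siblings, against 475 and 601 in day 3 siblings. It changed by −1.24 ± 0.32 in mutants (adjusted p = 0.019) and by +0.88 ± 0.32 in siblings (adjusted p = 0.077), and the adjusted p of the difference was 0.21, or 0.0055 without mutant replicate 3 of day 5. rgs9a, which switches the cascade off, had 106, 157 and 280.5 in day 5 mutants, against 461 and 398 in day 3 mutants (−1.07 ± 0.24, adjusted p = 0.0093), and 1282, 1222 and 1237 in day 5 siblings, against 921 and 860.5 in day 3 siblings. Both genes were under the limit of 223 in mutant replicates 1 and 2 of day 5. That limit is set on the mean of all pools, and gucy2d reached it through its sibling signals. Without mutant replicate 1 of day 3 the mutant change had an adjusted p of 0.062 for gucy2d and 0.077 for rgs9a. For gucy2d it was also 0.13 without replicate 2 of day 3 and 0.053 without replicate 1 of day 5.

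The opsins themselves, read after the values were known, spread widely between mutant pools. opn1mw1, a green cone opsin, had 2451, 6605 and 13263 in day 5 mutants, against 3829.7 and 3429 in day 3 mutants, and 55916, 41094 and 36772 in day 5 siblings, against 18748 and 14757 in day 3 siblings. opn1sw1, the ultraviolet cone opsin, had 4438, 10344 and 26305 in day 5 mutants, against 15219 and 14735 in day 3 mutants, and 80845, 68032 and 58084 in day 5 siblings, against 44259 and 37824 in day 3 siblings. For both genes replicate 1 of day 5 lay below the day 3 mutant pools and replicate 3 above them, and the changes were +0.72 ± 0.47 (adjusted p = 0.31) and −0.49 ± 0.48 (adjusted p = 0.52). Without replicate 1 opn1mw1 passed with +1.35 (adjusted p = 0.0088), and without replicate 3 opn1sw1 passed with −1.14 (adjusted p = 0.020). pde6c, the cone phosphodiesterase, had 604, 1217 and 1578 in day 5 mutants, against 1344 and 1147 in day 3 mutants (−0.22 ± 0.27, adjusted p = 0.61), and rose by +1.08 in siblings (adjusted p = 0.016). rpe65a, the retinoid isomerase of the neighbouring pigment epithelium, rose to 9353, 10926 and 8307 in day 5 mutants, against 3391 and 3869 in day 3 mutants (+1.37 ± 0.15, adjusted p = 0.00022, and +0.64 ± 0.15 in siblings). In all, 3 of 15 retinoid cycle genes were higher and 2 lower in mutants, and the 3 were 2 and 1 without day 3 mutant replicate 1 or 2.

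**Figure D4:**
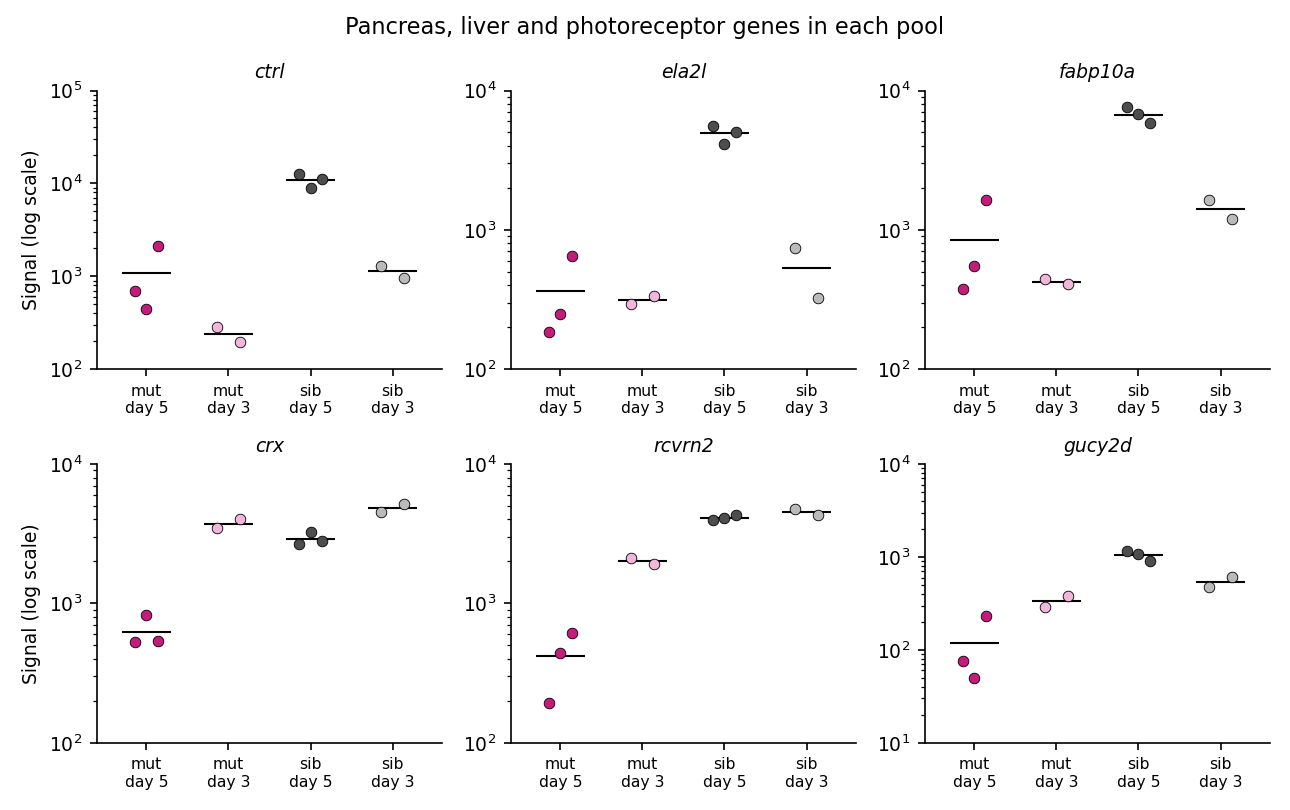
Signal of 6 genes in each pool on a log scale, with a bar at the group mean; mut is mutant (3 pools on day 5, 2 on day 3) and sib is sibling (3 and 2). ctrl, ela2l and fabp10a are at least 4158 in every day 5 sibling pool and at most 2110 in every mutant pool; crx, rcvrn2 and gucy2d are lower in every day 5 than in every day 3 mutant pool.

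Part of the genes in the list of retinal and neural progenitors also fell. That list also holds factors of retinal cell types, such as vsx1 and six7 below, so its counts do not measure progenitors alone. 23 of 54 tested genes (62 are on the array) were lower in mutants (42.6%) and 1 higher, against 7 lower and 0 higher in siblings, with medians of −0.39 in mutants and −0.10 in siblings. As for phototransduction, the limit of 223 is set on the mean of all pools. Members low in mutants could pass it through their sibling signals, as six7 did, so the contrast of these counts is only a description. The 7 sibling calls were 1 with the relabelled pool, 1 and 2 without sibling replicate 2 or 1 of day 3, and 4 to 6 without a day 5 sibling pool. vsx1, a homeobox factor of bipolar cells, had 485, 837 and 675 in day 5 mutants, against 2628 and 3182 in day 3 mutants (−2.05 ± 0.20, adjusted p = 0.00011), and 2113, 3015 and 2620.4 in day 5 siblings, against 4249.5 and 4328 in day 3 siblings (−0.73 ± 0.20). The difference of −1.32 ± 0.28 had an adjusted p of 0.21. six7, a factor for green cones, had 42.3, 118 and 139.7 in day 5 mutants, against 459.6 and 645 in day 3 mutants (−1.94 ± 0.26, adjusted p = 0.00055, all 3 day 5 pools under the limit of 223), and 844, 823 and 988 in day 5 siblings, against 1124 and 889.6 in day 3 siblings (difference −1.77 ± 0.36, adjusted p = 0.19). otx2b, a homeobox factor of forebrain and eye, had 1214, 1144 and 972 in day 5 mutants, against 2186 and 2746 in day 3 mutants (−1.10 ± 0.14, adjusted p = 0.00046), and a change of −0.11 ± 0.14 in siblings (difference −0.99 ± 0.20, adjusted p = 0.19).

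The Notch ligand dlb changed by −1.46 ± 0.19 in mutants (adjusted p = 0.00050) and −0.75 ± 0.19 in siblings, her4.2, a target of Notch, by −1.29 ± 0.20 in mutants (adjusted p = 0.0016) and −1.02 ± 0.20 in siblings, and sox11b by −0.96 ± 0.14 in mutants (adjusted p = 0.00081) and −0.61 ± 0.14 in siblings. foxg1b, a forebrain and nasal retina factor outside the list and named after its values were seen, had 826, 816 and 879 in day 5 mutants, against 1688 and 1722 in day 3 mutants (−0.97 ± 0.11, adjusted p = 0.00027). In siblings it had 2965, 3202 and 3072 on day 5, against 3016 and 2905 on day 3, and the difference of −1.02 ± 0.15 had an adjusted p of 0.077. The 23 lower calls were 16 and 11 without day 3 mutant replicate 1 or 2, and 22 without replicate 3 of day 5. In the list of differentiated neurons 5 of 45 were higher and 8 lower in mutants, against 9 and 3 in siblings, and the 8 were 2 and 3 without day 3 mutant replicate 1 or 2, and 5 without mutant replicate 1 of day 5. The 9 higher sibling calls were 1 with the relabelled pool, 2 and 2 without sibling replicate 2 or 1 of day 3, and 2 to 5 without a day 5 sibling pool. neurod1, a neuronal differentiation factor, had 1232, 1581 and 1235 in day 5 mutants, against 2997 and 2959.6 in day 3 mutants (−1.11 ± 0.13, adjusted p = 0.00030, and −0.39 ± 0.13 in siblings), and dpysl3, of growing axons, changed by −0.66 in mutants and −0.34 in siblings. pvalb7, a calcium-binding parvalbumin, rose to 2828, 2756 and 3911 in day 5 mutants, against 1240.1 and 1406 in day 3 mutants (+1.203 ± 0.15, adjusted p = 0.00040), and by +1.54 in siblings.

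Stress genes were among the large rises in mutants. clu, clusterin, a secreted chaperone, had 4235, 5466 and 3320.3 in day 5 mutants, against 865 and 832 in day 3 mutants, and 1154, 1036 and 990.0 in day 5 siblings, against 729.7 and 698 in day 3 siblings. It rose by +2.24 ± 0.18, or 4.73-fold, in mutants (adjusted p = 3.2e-05) and by +0.53 ± 0.18 in siblings, with a difference of +1.71 ± 0.25 (adjusted p = 0.073, and 0.0055 without mutant replicate 3 of day 5). socs3b, which damps cytokine signalling, had 2441, 2087 and 1676 in day 5 mutants, against 757 and 603 in day 3 mutants (+1.51 ± 0.17, adjusted p = 0.00027). In siblings it had 729.5, 656 and 599 on day 5, against 665 and 676 on day 3, so that the sibling days overlapped (difference +1.53 ± 0.24, adjusted p = 0.090, and 0.0089 without that pool).

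Of the 72 heat shock and stress genes 14 were higher and 6 lower in mutants, against 7 higher and 16 lower in siblings, with medians of +0.10 in mutants and −0.06 in siblings. The 14 higher calls were 11 and 8 without day 3 mutant replicate 1 or 2, and the 16 lower sibling calls were 3 with the relabelled pool, 3 and 10 without sibling replicate 2 or 1 of day 3, and 10 to 12 without a day 5 sibling pool. serpinh1b, the collagen chaperone, had 5974, 7094 and 5531 in day 5 mutants, against 3916 and 3078 in day 3 mutants (+0.82 ± 0.16, adjusted p = 0.0047, which was 0.058 without mutant replicate 2 of day 3). gsr, glutathione reductase, had 1762, 1895 and 1894 in day 5 mutants, against 1007 and 957 in day 3 mutants (+0.87 ± 0.11, adjusted p = 0.00047, and +0.65 ± 0.11 in siblings). The mitochondrial chaperones hspd1, hspa9 and hspe1, singled out after their values were seen, fell in siblings by 0.75, 0.66 and 0.34 on the log2 scale (adjusted p = 0.0026, 0.0014 and 0.039). In mutants their changes were −0.18 ± 0.13, −0.16 ± 0.10 and +0.13 ± 0.10 (adjusted p = 0.35, 0.29 and 0.42), and the adjusted p of the difference was 0.55, 0.44 and 0.54.

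Genes of interferon response and antigen presentation gave 5 of 9 tested higher in mutants and 0 in siblings, with medians of +0.75 in mutants and +0.05 in siblings. These 9 are the members above the limit of 223 out of 21 on the array. The limit is set on the mean of all pools, so members high in mutants alone could pass it and the count gives no support beyond a description. isg15 is such a member, with all 5 sibling pools under the limit. isg15, a ubiquitin-like modifier induced by interferon, had 972, 1055 and 622 in day 5 mutants, against 425 and 348 in day 3 mutants (+1.04 ± 0.23, adjusted p = 0.0088), and 152, 168 and 114 in day 5 siblings, against 136 and 159 in day 3 siblings (difference +1.07 ± 0.33, adjusted p = 0.50). The others were the proteasome activator genes psme1 (+0.82 ± 0.21, adjusted p = 0.019) and psme2 (+0.78 ± 0.24, adjusted p = 0.039), tapbp.1, a tapasin that loads peptides (+0.80 ± 0.18, adjusted p = 0.011), and irf9, a factor of the interferon pathway (+0.75 ± 0.24, adjusted p = 0.047). In siblings tapbp.1 also rose, by +0.53 ± 0.18 (adjusted p = 0.062), and psme1 changed by +0.24 ± 0.21, both without overlap of the days. The sibling changes of psme2 and irf9 were +0.08 ± 0.24 and +0.05 ± 0.24, with overlap. The difference had an adjusted p of 0.90 for tapbp.1, 0.77 for psme1, 0.75 for psme2 and 0.76 for irf9. The mutant calls depended on single pools. Without mutant replicate 1 of day 3 only isg15 remained called, and without replicate 2 only psme2 and tapbp.1. The adjusted p without replicate 1 was 0.089 for psme1, 0.38 for psme2, 0.093 for tapbp.1 and 0.077 for irf9, and without replicate 2 it was 0.076 for isg15, 0.093 for psme1 and 0.28 for irf9. Leaving out mutant replicate 3 of day 5 took psme2 to 0.055, replicate 1 of day 5 took irf9 and psme2 to 0.080 and 0.071, and replicate 2 took them to 0.12 and 0.075. Both also missed the threshold without any 1 of several sibling pools. Among 26 neutrophil and macrophage genes 8 were higher in mutants and 0 lower, against 6 higher and 1 lower in siblings, and the 8 were 3 and 4 without day 3 mutant replicate 1 or 2. The 6 higher sibling calls were 2 with the relabelled pool, 3 and 4 without sibling replicate 2 or 1 of day 3, and 5 to 6 without a day 5 sibling pool. cd68, a lysosomal protein of macrophages, had 8855, 7357 and 6640.5 in day 5 mutants, against 4195 and 3085 in day 3 mutants (+1.06 ± 0.18, adjusted p = 0.0021, and +0.59 ± 0.18 in siblings).

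The p53 targets mdm2 and rps27l were above every sibling pool in day 3 mutants and rose further. mdm2, the ubiquitin ligase that p53 induces and that removes p53, had 7652, 6982 and 7276 in day 5 mutants, against 4299 and 3885 in day 3 mutants, and 1525, 1589.8 and 2014 in day 5 siblings, against 1039.8 and 1227 in day 3 siblings. It rose by +0.83 ± 0.13 in mutants (adjusted p = 0.0019) and by +0.56 ± 0.13 in siblings (adjusted p = 0.014), with a difference of +0.27 ± 0.19 (adjusted p = 0.84). rps27l had 12171, 15004 and 12598 in day 5 mutants, against 9550.4 and 7185 in day 3 mutants (+0.67 ± 0.13, adjusted p = 0.0056, which was 0.071 without mutant replicate 2 of day 3), and 3519, 3621 and 3220.3 in day 5 siblings, against 2424 and 2638 in day 3 siblings. mcl1b, which blocks apoptosis, rose to 3203, 2958 and 3241 in day 5 mutants, against 874 and 1743 in day 3 mutants (+1.29 ± 0.22, adjusted p = 0.0021), and by +1.72 in siblings. Over the 45 genes of p53 targets and apoptosis, 10 were higher and 3 lower in mutants and 7 higher and 2 lower in siblings. isg15, counted above in the interferon list, is also among these 10. The 10 were 7 and 5 without day 3 mutant replicate 1 or 2, and the 7 in siblings were 1 with the relabelled pool, 1 and 3 without sibling replicate 2 or 1 of day 3, and 5 to 6 without a day 5 sibling pool.

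Further large rises in mutants lay outside the lists. fkbp5, a co-chaperone of steroid receptors, had 2716, 1637 and 2705 in day 5 mutants, against 846 and 509 in day 3 mutants (+1.71 ± 0.40, adjusted p = 0.013), and 3015, 2531 and 1268 in day 5 siblings, against 814 and 2173 in day 3 siblings. klf9, a zinc finger factor, had 3204, 2412 and 3612 in day 5 mutants, against 1295 and 655 in day 3 mutants (+1.65 ± 0.31, adjusted p = 0.0040), and 4701, 3969 and 2352 in day 5 siblings, against 2159 and 3358 in day 3 siblings. In both the sibling days overlapped. The differences were +1.06 ± 0.57 (adjusted p = 0.78) and +1.27 ± 0.44 (adjusted p = 0.62), and without mutant replicate 2 of day 3 the mutant change had an adjusted p of 0.12 for fkbp5 and 0.054 for klf9. With sibling replicate 2 of day 3 taken as a mutant pool, as its strain label has it, the adjusted p was 0.072 and 0.10. cebpd, an inflammatory transcription factor, had 4437, 4463 and 7081 in day 5 mutants, against 2455 and 1346 in day 3 mutants (+1.48 ± 0.24, adjusted p = 0.0020, and +0.56 ± 0.24 in siblings). epd, the brain glycoprotein ependymin, had 3159, 3240.1 and 3427 in day 5 mutants, against 1225 and 696 in day 3 mutants (+1.75 ± 0.19, adjusted p = 0.00022), and 6901, 5198 and 5445 in day 5 siblings, against 2336 and 2062 in day 3 siblings.

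Changes called in opposite directions were few: 4 of 11626 probe sets were called in both comparisons with opposite signs. slc25a3a, a mitochondrial phosphate carrier, had 551, 672 and 992 in day 5 mutants, against 1149.7 and 1173 in day 3 mutants (−0.65 ± 0.20, adjusted p = 0.037), and 3243, 3169 and 2674 in day 5 siblings, against 2133 and 1716 in day 3 siblings (+0.64 ± 0.20, adjusted p = 0.041). The difference of −1.29 ± 0.28 had an adjusted p of 0.21, and 0.011 without mutant replicate 3 of day 5. The mutant fall of slc25a3a missed the threshold without any 1 of the other 4 mutant pools, with adjusted p between 0.074 and 0.15, and also without sibling replicate 1 or 2 of day 5. vmp1, a membrane protein needed for autophagy, had 4103, 4091 and 3955 in day 5 mutants, against 3332 and 3106 in day 3 mutants (+0.33 ± 0.11, adjusted p = 0.048), and 2483, 2426 and 2788 in day 5 siblings, against 3171 and 3318 in day 3 siblings (−0.33 ± 0.11, adjusted p = 0.045). Its mutant call was lost without each array in turn, with adjusted p between 0.054 and 0.22. The third probe set is for hsp90aa1.2, an Hsp90, at +0.46 in mutants and −0.36 in siblings, but the brighter probe set of that gene did not pass in either. The fourth has no gene name.

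**Figure D5:**
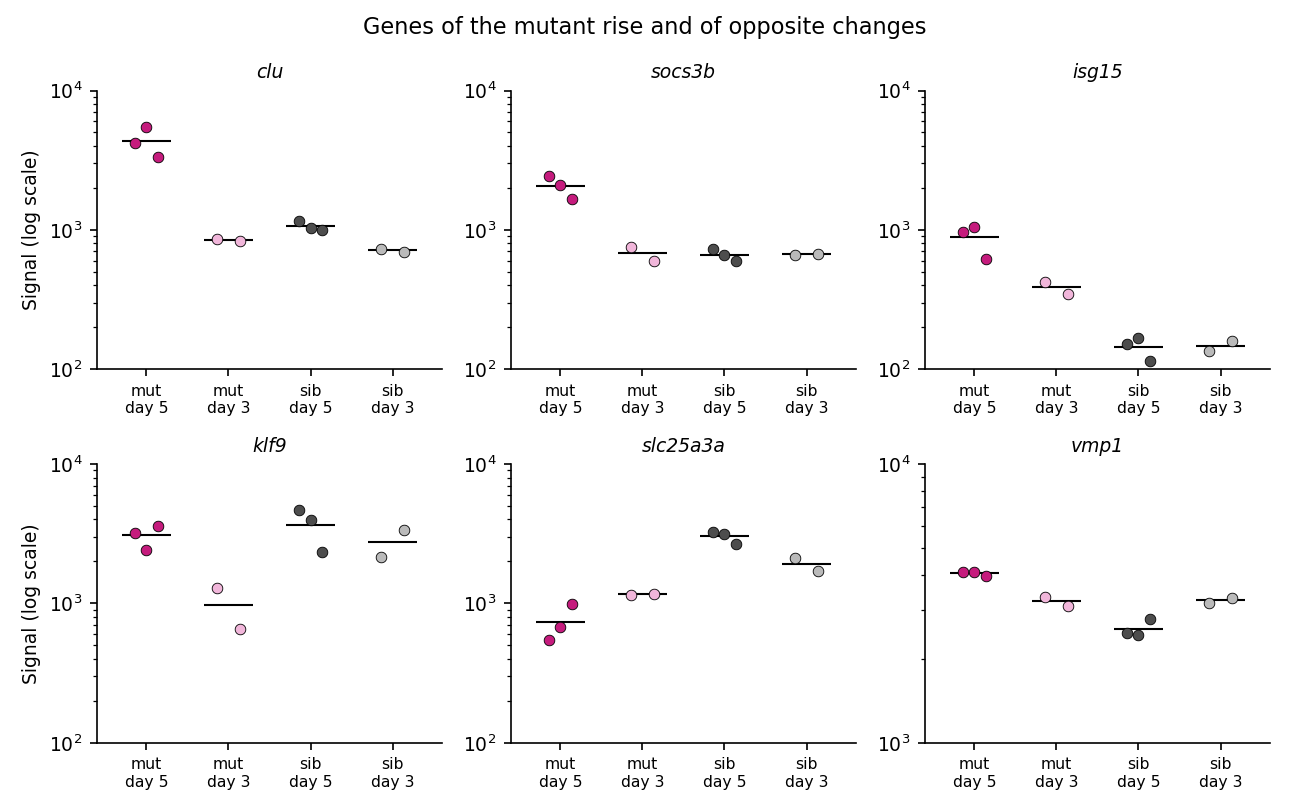
Signal of 6 genes in each pool on a log scale, with a bar at the group mean; mut is mutant (3 pools on day 5, 2 on day 3) and sib is sibling (3 and 2). clu, socs3b, isg15, klf9 and vmp1 are higher in every day 5 than in every day 3 mutant pool and slc25a3a is lower, while in siblings slc25a3a and vmp1 run the other way.

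Part of the genes of the splicing machinery, in which sart3 works, were called lower. Of 112 spliceosome genes 16 were lower in mutants (14.3%, against 9.67% of all genes) and 1 higher, and in siblings 28 were lower and 3 higher, with medians of −0.13 in mutants and −0.24 in siblings. With the relabelled pool 12 were lower in mutants and the list's median there turned to +0.048. The 28 sibling calls were 2 with the relabelled pool, 4 and 9 without sibling replicate 2 or 1 of day 3, and 12 to 17 without a day 5 sibling pool. sf3a3, a U2 subunit, had 3701, 4238 and 2682 in day 5 mutants, against 6142 and 6262 in day 3 mutants, and 1238, 1412 and 1352 in day 5 siblings, against 1944 and 2479.9 in day 3 siblings. It changed by −0.82 ± 0.17 in mutants (adjusted p = 0.0067, and 0.37 with sibling replicate 2 of day 3 taken as a mutant) and by −0.69 ± 0.17 in siblings, and in every day 5 mutant pool it was still above every sibling pool. acin1a, of the exon junction complex, changed by −1.01 ± 0.11 in mutants (adjusted p = 0.00022) and −0.70 ± 0.11 in siblings, and ppil1, a spliceosomal isomerase and the 1 higher member, by +0.83 ± 0.13 in mutants (adjusted p = 0.0015) and +0.50 ± 0.13 in siblings. lsm8, which completes the ring that binds U6 RNA, was read after its values were seen: it had 20080.3, 23482 and 14783 in day 5 mutants, against 19871 and 19859.5 in day 3 mutants (−0.06 ± 0.15, adjusted p = 0.84), and 2876, 2571 and 2966 in day 5 siblings, against 4577 and 4607 in day 3 siblings (−0.70 ± 0.15, adjusted p = 0.0092). The difference of +0.65 ± 0.22 had an adjusted p of 0.60, and 0.040 without mutant replicate 3 of day 5. The 16 lower calls were 10 and 7 without day 3 mutant replicate 1 or 2. In the nucleolus and ribosome assembly 4 of 90 genes were higher (4.44%) and 7 lower (7.78%) in mutants, both under the shares of all genes (9.97% and 9.67%). In siblings 2 were higher and 17 lower. The 7 lower mutant calls were fewer without either day 3 mutant pool. The 17 lower sibling calls were 0 with the relabelled pool, 1 and 7 without sibling replicate 2 or 1 of day 3, and 11 to 16 without a day 5 sibling pool. nop58, of the snoRNPs that methylate ribosomal RNA, had 2937, 3508 and 3817 in day 5 mutants, against 6825 and 8065 in day 3 mutants (−1.11 ± 0.14, adjusted p = 0.00042, and −0.72 ± 0.14 in siblings).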

How the data were processed

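Whole-embryo RNA was hybridised to Affymetrix zebrafish arrays, 1 pool per array. The deposited values are linear signal intensities, made with MAS5 per the submitters' processing notes; neither its version nor detection calls were at hand. The arrays' 2% trimmed means were equal (1500.4), and the values were used as deposited, which makes changes relative within an array. Of 15617 probe sets, 115 controls were dropped. The 2016 platform annotation assigns 1 symbol to 10795 of the others, several to 135 and none to 4572; only those with 1 are named, and a gene is shown by its brightest probe set (58 genes have another called the opposite way). Values were analysed as log2(signal + 64.8), 10% of the median of 647.8, which understates changes of low signals. The lowest 25% by mean (under 223) were left out, keeping 11626 probe sets. limma 3.58.1 (R 4.3.3) fitted 4 group means to all 10 arrays with eBayes and a trend (6 residual, 6.58 prior degrees of freedom). The Benjamini-Hochberg method, applied to every probe set tested, gave adjusted p-values, called under 0.05. Errors of log2 changes are standard errors; n is 3 pools on day 5 and 2 on day 3. The labels call the replicates biological. Alternatives tried were the pseudocount, filter, scaling, spread estimate, replicate block, left-out arrays and conflicting labels; the closing section gives their counts of calls and the log2 values that changed sign. 35 gene lists (2335 entries, 1549 on the array, 62 through a synonym) were used. The rule for named genes took sart3, mdm2, genes among the 15 largest called changes each way without overlap of the days, genes called in opposite directions, and up to 4 called members per list and direction. Outside it, and chosen after their values were seen, are rps27l, irf9, hspd1, hspa9, hspe1, krt1-19d, fabp1b.1, fabp6, alpi.2, ela2, ela2l, amy2a, prss1, pdia2, fabp10a, gucy2d, rgs9a, pde6c, opn1mw1, opn1sw1, nr2e3, otx2b, sox11b, foxg1b, ezh2, srsf4, lsm8, cry-dash and rorab. The members and lists were chosen with earlier results of these data known. The test script was tested on simulated data.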

Additional observations from a re-analysis of the deposited data

Results flagged for a closer look

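For 5 of the genes given, every day 5 mutant pool lay on one side of every day 3 mutant pool and the sibling pools lay the opposite way. Of these, gucy2d and rgs9a were chosen after their values were seen, and slc25a3a and vmp1 for their opposite calls. The share of all genes in such an order was not counted, so the 5 are only a description. The difference between the mutant and the sibling change was −1.29 ± 0.28 for slc25a3a (adjusted p = 0.21 in limma), +0.66 ± 0.15 for vmp1 (adjusted p = 0.26), −2.13 ± 0.46 for gucy2d (adjusted p = 0.21), −1.52 ± 0.33 for rgs9a (adjusted p = 0.21) and −1.09 ± 0.26 for rlbp1a (adjusted p = 0.32), so none passed. rlbp1a, a retinoid carrier of Müller glia and pigment epithelium, had 982, 970.5 and 650.4 in day 5 mutants, against 1304 and 1758 in day 3 mutants (−0.78 ± 0.18, adjusted p = 0.012, and 0.12 without mutant replicate 2 of day 3), and 2911, 2546 and 2416 in day 5 siblings, against 2241 and 1964 in day 3 siblings. Groups of 2 and 3 pools were too small to test single pools as outliers.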

How the results depend on the processing

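The mutant comparison called 997 probe sets higher and 1214 lower. Fitted on the mutant arrays alone it called 491 and 564, with fewer samples behind the spread. The sibling counts (958 and 1171) were 1653 and 2000 with array weights, and 150 and 115 with the second day 3 sibling pool moved to the mutants; the probe sets called in both were then 117 higher and 104 lower, against 555 and 661. The difference test, which called none, called 2 higher and 4 lower with array weights, 2 and 6 with a pseudocount of 50% of the median, and 2 and 24 without the pools labelled day 4, where 357 were called higher in both. The replicate number as a block gave 3 and 4 for the difference, and the replicate block by day and number 2 and 2. Neither block changed the mutant counts by over 1.5 times (1024 and 1246 with the number as a fixed block). The fixed block ended the mutant call of vmp1 and added calls of sart3 and pdia2, and the block by day and number ended that of irf9 (adjusted p = 0.051). The difference passed for clu, crx and socs3b with either block, for foxg1b with the block by day and number (adjusted p = 0.045), and for elovl4b and ela2l with the fixed block (adjusted p = 0.021 and 0.028). Residuals of mutant and sibling pools with the same number correlated at 0.224 to 0.265 on day 5 (3 pairs), and those with different numbers at −0.149 to −0.103. On day 3 the correlation was −0.0482 for both pairs. With 2 pools per group these 2 pairs must give the same value, so they are not separate checks. Across days pools with the same number correlated at −0.0559 to 0.143. Since not every pair passed 0.1, the numbers were not taken to pair samples, although on day 5 each pool correlated best with its own number. Leaving out each array in turn gave ranges of 469 to 1036 higher and 491 to 1178 lower in mutants, 218 to 1072 and 153 to 1305 in siblings, 0 to 6 and 0 to 44 for the difference, and 159 to 570 and 134 to 677 for calls in both. The cause of these shifts was not tested. Of 89 genes given as called in mutants, 65 kept the call in every alternative run and 24 lost it in at least 1; moving that sibling pool to the mutants ended 8 calls (fkbp5, klf9, matn1, pvalb6, aldoca, ctrl, cpa4 and sf3a3) and the mutant arrays alone 12. Sign changes were limited to values that had not passed (ranges are over the fits without 1 array): fabp1b.1 +0.15 (sibling pool counted as mutant), +0.27 and +0.09 (without mutant day 3 replicate 2 or day 5 replicate 1), with a range of −0.50 to +0.27; ela2 −0.0395 without mutant day 5 replicate 3, also without the day 4 pools (range without single arrays to 1.57); ela2l −0.0066 (pseudocount 1%), −0.22 (fixed block), −0.06 (without mutant day 3 replicate 1) and −0.44 (without replicate 3 of day 5 or the day 4 pools), with a range to +0.33; pde6c +0.15 (range −0.50 to +0.15) and opn1sw1 +0.14 (range −1.14 to +0.14) without mutant day 5 replicate 1; hspe1 −0.0017 (range to +0.27) without mutant day 3 replicate 2; lsm8 0.0155 (fixed block), +0.64 (sibling pool as mutant) and +0.13 (without replicate 3 of day 5 or the day 4 pools), with a range from −0.20; and the difference of chia.2, +0.29 with a pseudocount of 1%. With 2 pools on day 3 the precision rests on few arrays, and a fit that leaves out 1 of them assumes that the lone pool varies like the other groups.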

Other observations

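Part of the muscle and heart genes rose in mutants. Of 54 skeletal muscle genes 12 were higher and 2 lower in mutants, against 4 higher and 6 lower in siblings; after quantile normalization the mutant counts were 8 and 6, with a median of −0.00 in place of +0.13. The 12 higher calls were 8 and 4 without day 3 mutant replicate 1 or 2, and the 6 lower sibling calls were 0 with the relabelled pool, 0 and 3 without sibling replicate 2 or 1 of day 3, and 5 to 6 without a day 5 sibling pool. desma, the intermediate filament desmin, had 10539, 12502 and 10201 in day 5 mutants, against 5842 and 6266 in day 3 mutants (+0.86 ± 0.13, adjusted p = 0.0010 in limma, and +0.76 ± 0.13 in siblings). Of 9 heart genes 4 were higher and 2 lower in mutants, with 1 higher without mutant replicate 1 of day 3, 0 called without replicate 2 of day 3, and 0 and 2 higher without mutant replicate 1 or 2 of day 5. Of 28 glycolysis genes 8 were higher (5 and 2 without day 3 mutant replicate 1 or 2, and 5 without mutant replicate 2 of day 5) and 1 lower, and aldoca, a brain aldolase, had 398, 329 and 424 in day 5 mutants, against 218 and 158 in day 3 mutants (+0.83 ± 0.18, adjusted p = 0.0094, and 0.087 without mutant replicate 2 of day 3). pvalb6, a parvalbumin of the neuron list, changed by +0.93 ± 0.14 in mutants (adjusted p = 0.0015). In the cartilage and matrix list 5 of 40 were higher and 5 lower in mutants (12.5% each, near the 9.97% and 9.67% of all genes), against 5 and 9 in siblings. Fewer were higher in mutants without mutant replicate 2 of day 3. The 9 lower sibling calls were 2 with the relabelled pool, 2 and 3 without sibling replicate 2 or 1 of day 3, and 5 to 6 without a day 5 sibling pool. matn1, a cartilage matrix protein, had 17711, 16088 and 21751 in day 5 mutants, against 12659 and 8275 in day 3 mutants (+0.84 ± 0.17, adjusted p = 0.0055, which was 0.069 without mutant replicate 2 of day 3), and 25837, 22075 and 24104 in day 5 siblings, against 27686 and 23823 in day 3 siblings. hapln1a, a hyaluronan linker, fell to 3963, 2964 and 3393 in day 5 mutants, against 6531 and 7001 in day 3 mutants (−0.97 ± 0.15, and −1.16 ± 0.15 in siblings), and sox9b, a cartilage and glial regulator, changed by +0.65 ± 0.11 in mutants and +0.51 ± 0.11 in siblings.

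The remaining lists had small numbers of calls in mutants, but not all of the shares were small. The share lower in mutants was above the 9.67% of all genes for the erythroid, thymus, lens, proteasome and aryl hydrocarbon lists. The share higher was above the 9.97% of all genes for the erythroid, thymus and hatching lists. The erythroid list had 2 of 18 higher and 3 lower in mutants; slc4a1a, the red cell anion exchanger, had 579.7, 678 and 717 in day 5 mutants, against 1200.5 and 2489 in day 3 mutants (−1.32 ± 0.29, adjusted p = 0.0082, and 0.10 without mutant replicate 2 of day 3). The counts were 2 higher and 2 lower of 9 for thymus, 0 and 1 of 6 for lens, 3 and 8 of 49 for proteasome and ubiquitin (1 and 15 in siblings), 1 and 3 of 63 for patterning genes, 1 and 3 of 13 for the aryl hydrocarbon and xenobiotic list, and 1 and 0 of 8 for hatching and maternal genes. Without day 3 mutant replicate 2 they were 1 and 0 for the erythroid list, 1 and 0 for thymus, 3 and 3 for proteasome and ubiquitin, and 0 for lens, patterning and hatching genes. The 15 lower sibling calls of the proteasome list were 3 with the relabelled pool, 4 and 8 without sibling replicate 2 or 1 of day 3, and 10 to 13 without a day 5 sibling pool.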
